A study of Mus musculus with 6 samples.

Results

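The 2 samples of EpH4 cell monolayers numbered 1, vehicle 1 and TGF-β3 1, were compared with the 4 numbered 2 or 3. There were 6 samples in all. EpH4 is an epithelial cell line from mouse mammary gland. Every monolayer had been confluent for 7 days, with tight junctions formed and electrical resistance measured across the cell layer on every day of culture. Each then received either vehicle or TGF-β3, a secreted ligand of the TGF-β family, at 1 ng/ml for 24 hours without serum. RNA of 3 wells was pooled per sample, the labels give 3 experiments, and each sample was read on 1 whole-transcript mouse array. The labels do not say whether equal numbers mark 1 experiment, 1 array strip or 1 scan, so culture number, experiment and hybridisation cannot be told apart.

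The split of number 1 from numbers 2 and 3 was chosen from these same arrays, because earlier results had shown the arrays of number 1 standing apart. The difference between them is therefore given as a description, with its standard error (SE) and with no test. The SE takes all arrays as separate samples. If equal numbers mark 1 experiment, it does not measure the spread between cultures. It was also moderated, which draws the spread of each gene toward a value common to all genes. The values that chose it were the log2 signals of all 20848 genes with 1 symbol, each the mean of the gene's probe sets. A difference is number 1 minus the mean of numbers 2 and 3 on the log2 scale, taken within each treatment and averaged over both. A gene is called set apart where both arrays of number 1 lay above, or both below, all 4 other arrays and the difference was at least 0.5, which is 1.41-fold. Log2 signals of different genes are not amounts of RNA, so a level of 1 gene is not compared with that of another. Median signals of groups of genes are given only to show how bright their probe sets were.

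Many of the genes set apart belong to the interferon response. Cells that sense viral or misplaced nucleic acid secrete type I and type III interferons. These bind receptors coupled to JAK kinases, and a complex that includes STAT2 and IRF9 then enters the nucleus. It binds a DNA element called the interferon-stimulated response element in front of genes for antiviral proteins. Among those genes is IRF7, which sustains the response, and epithelial cells keep a low basal level of the whole programme without infection.

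The array vehicle 3 stood apart in its range of signals. The SD over genes was 1.58 there and 1.68 to 1.74 on the other 5 arrays, and array medians lay between 6.56 and 6.64. Over all genes, the 2 arrays of number 1 were more alike than any other pair. The SD of their difference over genes was 0.115, against 0.157 for vehicle 2 and TGF-β3 2, 0.277 for vehicle 3 and TGF-β3 3, and 0.147 to 0.327 over the other 14 pairs of arrays. Values with vehicle 3 left out are given for some of the results.

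Letters of the response element were looked for in front of the genes, and the sequences below are shown because they lie at the genes with the largest differences that carried it, among genes with at least 3 probe sets. Ifit3 and Ifit3b, which have fewer, carried it too and are not shown. The RefSeq promoter windows (GRCm38.p6) ran from 250 bases before to 50 bases after each start. The searched core was GAAANNGAAA on either strand, where N is any base. It was present in 28.0% of the genes set apart higher in number 1, which is 40 of the 143 that had a window. The share was 1.39% (1 of 72) of those set apart lower, 3.87% of all 15859 measured genes with a window and 3.99% of all 27025 genes with one. A match is a run of letters and not a shown binding site. Capitals mark the core, and each sequence reads 5′ to 3′ on the gene's strand.
Rsad2: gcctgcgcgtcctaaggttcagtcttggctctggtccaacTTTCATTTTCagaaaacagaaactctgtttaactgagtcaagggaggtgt
Ifi205: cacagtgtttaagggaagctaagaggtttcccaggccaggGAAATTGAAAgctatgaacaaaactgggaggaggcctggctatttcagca
Ifit1: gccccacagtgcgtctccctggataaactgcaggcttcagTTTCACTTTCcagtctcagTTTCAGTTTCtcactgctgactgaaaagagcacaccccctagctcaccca
Igtp: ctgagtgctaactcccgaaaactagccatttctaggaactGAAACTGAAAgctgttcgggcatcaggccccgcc
These are chr12:26456523-26456612 on the minus strand for Rsad2, chr1:174031840-174031929 on the minus strand for Ifi205, chr19:34640745-34640853 on the plus strand for Ifit1 and chr11:58199482-58199555 on the plus strand for Igtp. In Ifit1 the core occurs at 2 places, in Ifi205 a second match lies after the start and is not shown, and in Rsad2 and Ifit1 it lies on the opposite strand, where it reads as TTTCNNTTTC. The core starts 120 bases before the start of Rsad2, 134 before that of Ifi205, 104 and 85 before that of Ifit1 and 34 before that of Igtp.

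Other elements were searched in the same windows. The gamma-activated site TTCNNNGAA, an element of genes that interferon-γ induces, was present in 11.2% (16) of the genes set apart higher and in 8.92% of measured genes. The amino acid response element TGATGNAA, bound by ATF4 with a partner under amino acid shortage, was present in 2.8% (4) and 3.61%. The cyclic AMP response element TGACGTCA was present in 4.2% (6) and 2.66%. The largest positive difference outside the interferon lists was in Atf3, and its window holds the amino acid element on the opposite strand, 110 bases before the start (chr1:191183396-191183483, minus strand, element in capitals).
Atf3: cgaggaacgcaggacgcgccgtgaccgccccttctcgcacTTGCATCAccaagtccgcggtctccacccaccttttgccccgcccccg

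Most genes had similar signals in number 1 and in the other cultures. The median absolute difference was 0.097 log2 units, against 0.091 between numbers 2 and 3 and 0.096 between TGF-β3 and vehicle, and 88.7% of genes differed by under 0.25. The median SE was 0.09. In number 1, 192 genes were set apart higher (0.921% of 20848) and 105 lower (0.504%). At 2-fold these counts were 33 and 21. With no minimum difference, both arrays of number 1 lay above all others in 3146 genes (15.1%) and below all others in 2359 (11.3%). Across genes, the difference within vehicle and the difference within TGF-β3 correlated at 0.62, a description over genes that share the 6 arrays.

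**Figure D1:**
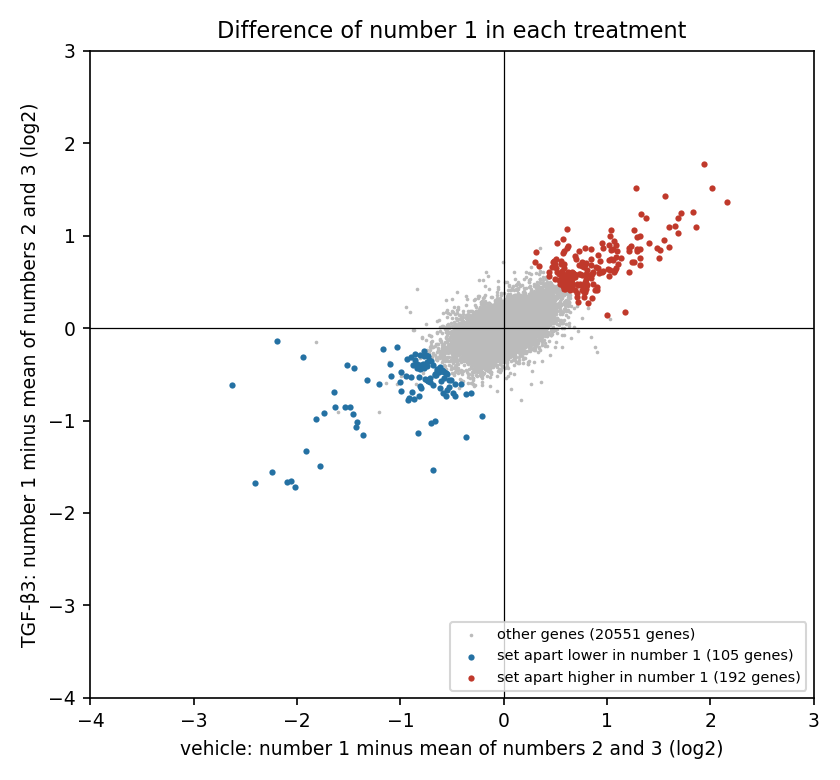
Each point is 1 of 20848 genes, placed by the difference of number 1 from the mean of numbers 2 and 3 in vehicle (x axis) and in TGF-β3 (y axis), both in log2 units; 192 genes set apart higher are red and 105 set apart lower are blue. The red genes lie in the upper right and the blue in the lower left, which the rule for choosing them fixes in part.

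The counts depended on which array was left out. Without vehicle 3 they were 184 higher and 100 lower, with 164 and 82 genes shared with the full set. Without TGF-β3 1, number 1 is vehicle 1 alone and the counts were 335 and 240. Without TGF-β3 3, 159 genes were set apart lower. Just inside the limit of 0.5 lay Zbtb7c and Plscr2 (0.5 each) and just outside it Pik3ip1 and Ak3l1 (0.499 each). On the lower side Cenpe (-0.51) and Cd109 (-0.539) lay inside and Ctsw (-0.499) and Has2 (-0.497) outside.

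The 2 directions differed in the kind of gene. Genes set apart higher had a median signal of 7.57 and those set apart lower 5.66, against 6.08 for all genes. Fewer than 3 probe sets stood behind 33 of the 192 higher genes and 68 of the 105 lower genes, where 18.5% of all genes have so few. With at least 3 probe sets, 159 genes were set apart higher and 37 lower. With a mean signal of at least 6 as well, the counts were 150 and 19.

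Genes of the interferon response were higher in number 1 in both treatments. In 6 lists of such genes (transcription factors, antiviral effectors, ubiquitin and PARP genes, guanylate-binding and related GTPases, nucleic acid sensors, and MHC class I presentation), 61 of 117 measured genes were set apart higher and 0 lower, beside 0.921% and 0.504% of all genes. The median difference was 0.54, with 105 genes above 0, while the median of all genes was 0.00. Within vehicle the median was 0.61 and within TGF-β3 it was 0.42. In bulk samples, more cells responding and more RNA per responding cell cannot be told apart.

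The mean signal of the 117 genes was 8.29 in vehicle 1 and 8.44 in TGF-β3 1. It was 7.71 in vehicle 2, 7.49 in vehicle 3, 8.03 in TGF-β3 2 and 7.90 in TGF-β3 3. Both arrays of number 1 therefore lay above all others, and vehicle 1 lay above every TGF-β3 array of the other numbers. Between 51 and 71 genes of the 6 lists were set apart higher when any 1 array was left out, 59 of them without vehicle 3, and 0 lower in each case.

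**Figure D2:**
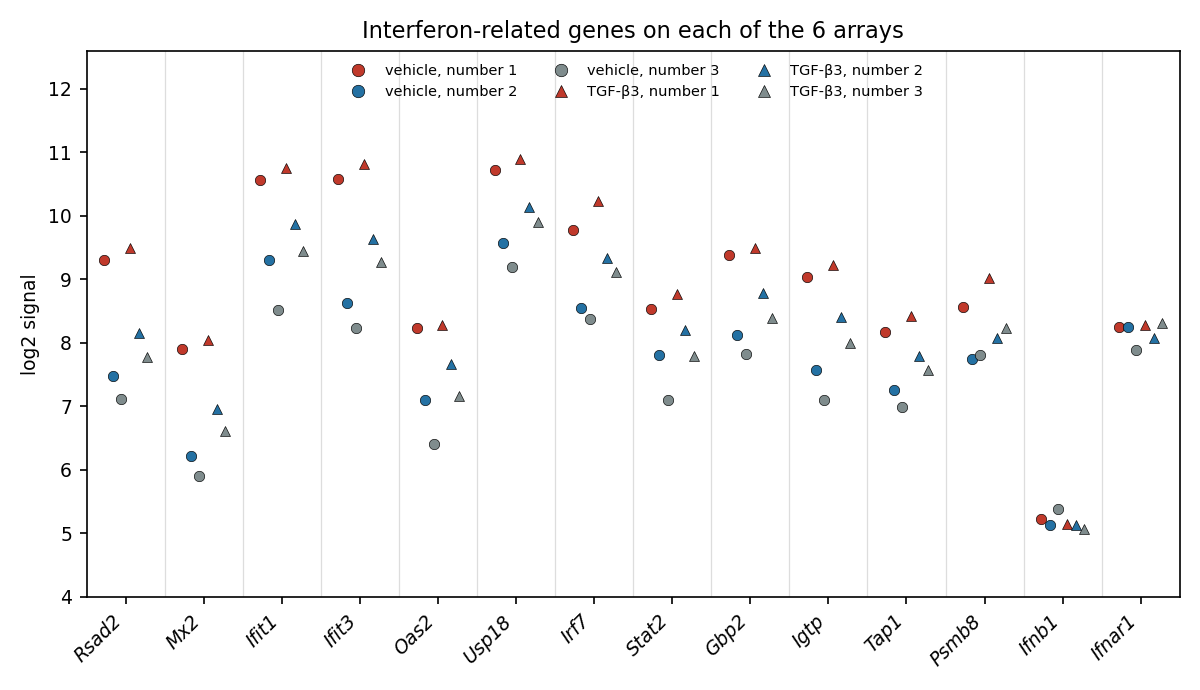
Log2 signal (y axis) of 14 interferon-related genes (x axis) on each of the 6 arrays, with circles for vehicle, triangles for TGF-β3, and red, blue and grey for numbers 1, 2 and 3. In the first 12 genes both red symbols lie above all others, by 1.77 on average for Rsad2, while for Ifnb1 and Ifnar1 they lie among the others.

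In what follows, the signals of a gene are given for vehicle 1 and TGF-β3 1, and then, after "against", for vehicle 2, vehicle 3, TGF-β3 2 and TGF-β3 3 in that order. The ligands, receptors and receptor kinases at the top of the pathway were not set apart (0 of 16 measured, median 0.12), but in 7 of the 16 both arrays of number 1 lay above all others, beside 15.1% of all genes. Ifnb1, which encodes interferon-β, read 5.22 and 5.15 against 5.13, 5.38, 5.13 and 5.07, a difference of 0.01 (SE 0.09). Its 3 probe sets had a mean near the lower quartile of all genes (5.06). Without detection calls, whether it was expressed at all is unknown. Ifnar1, a chain of the type I receptor, read 8.25 and 8.28 against 8.25, 7.88, 8.08 and 8.32, a difference of 0.13 (SE 0.12). For both genes the arrays of number 1 fell within the range of the others. The largest values of the list were 0.36 for Il10rb (SE 0.11), a chain of the type III receptor, 0.35 for the kinase Jak2 (SE 0.11), 0.31 for Ifnlr1 (SE 0.13), the other chain of that receptor, and 0.28 for the kinase Tyk2 (SE 0.10).

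Of 14 measured IRF and STAT genes, 4 were set apart higher (median 0.26). Irf7 read 9.78 and 10.23 against 8.55, 8.38, 9.33 and 9.12, a difference of 1.16 (SE 0.11), or 2.23-fold. Stat2 read 8.54 and 8.77 against 7.81, 7.10, 8.20 and 7.79, a difference of 0.93 (SE 0.19). Both arrays of number 1 were above all others for these genes, and vehicle 3 was the lowest. Irf9, the DNA-binding partner of STAT2, differed by 0.59 (SE 0.12), with 0.33 in TGF-β3 alone, and Irf1, which interferons and inflammatory signals induce, by 0.54 (SE 0.10).

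The antiviral effectors had 25 of 32 measured members set apart higher, with a median difference of 0.89. Rsad2 encodes viperin, an enzyme that makes a nucleotide which stops viral RNA synthesis. It read 9.31 and 9.49 against 7.48, 7.11, 8.16 and 7.77, a difference of 1.77 (SE 0.16), or 3.41-fold. Ifit1, whose protein binds foreign RNA ends, read 10.57 and 10.75 against 9.31, 8.51, 9.87 and 9.44, a difference of 1.38 (SE 0.22). Mx2, a dynamin-like GTPase against viruses, read 7.90 and 8.05 against 6.22, 5.91, 6.96 and 6.61, a difference of 1.55 (SE 0.15). In each of these genes the arrays of number 1 lay above the other 4, and the TGF-β3 arrays of numbers 2 and 3 lay above their vehicle arrays. Ifit3, a partner of Ifit1, differed by 1.76 (SE 0.19) on 2 probe sets, and its copy Ifit3b by 1.86 (SE 0.11) on 1 probe set, so the same probes may read both.

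Oas2 makes the second messenger that activates RNase L. It read 8.24 and 8.28 against 7.10, 6.41, 7.66 and 7.16, a difference of 1.17 (SE 0.21). Of the 12 Oas genes measured, 8 were set apart higher. Trim30a, a TRIM ubiquitin ligase, differed by 1.17 (SE 0.17) and its close relative Trim30d by 1.25 (SE 0.15). Not every effector was higher. Chosen after its values were seen, Ifitm2, a membrane protein against viral entry, read 10.62 and 10.72 against 10.72, 10.53, 10.83 and 10.76, a difference of -0.04 (SE 0.09).

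Ubiquitin-like conjugation and PARP genes had 9 of 15 members set apart higher (median 0.64). Usp18, the protease that removes ISG15 and restrains the type I receptor, read 10.72 and 10.89 against 9.58, 9.20, 10.14 and 9.91, a difference of 1.09 (SE 0.14). Herc6, the mouse ligase for ISG15, differed by 1.04 (SE 0.11), Ube2l6, the matching conjugating enzyme, by 0.90 (SE 0.10), and Parp9 by 0.83 (SE 0.12). In all 4 genes both arrays of number 1 were the highest. Of 12 measured Parp genes, 3 were set apart higher.

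Guanylate-binding proteins and immunity-related GTPases act on vacuoles that hold bacteria or parasites, and 13 of 15 measured members were set apart higher (median 0.90). Igtp read 9.03 and 9.23 against 7.58, 7.10, 8.41 and 7.99, a difference of 1.36 (SE 0.18). Iigp1 read 6.86 and 7.36 against 5.49, 5.67, 6.04 and 5.65, a difference of 1.40 (SE 0.12). For both genes the 2 arrays of number 1 were the highest, and for Iigp1 the other arrays lay close together. Gbp4 differed by 1.28 (SE 0.09) and Gbp2 by 1.16 (SE 0.15). These families hold near-identical members that may share probes, so single members are uncertain.

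Nucleic acid sensors had 5 of 19 members set apart higher (median 0.17). Dhx58 encodes LGP2, a helicase that acts with the RNA sensors RIG-I and MDA5. It read 8.51 and 8.97 against 7.03, 6.79, 8.05 and 7.72, a difference of 1.34 (SE 0.14). Ifih1, which encodes MDA5, differed by 1.06 (SE 0.14). Ifi205 differed by 1.47 (SE 0.20) and Ifi203 by 0.84 (SE 0.19), and Ifi204 by 0.62 (SE 0.13), the last named after its values were seen. The 3 Ifi genes are related members of 1 cluster and may share probes, which was not checked.

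MHC class I presentation had 5 of 22 members set apart higher (median 0.31). Tap1, which carries peptides into the endoplasmic reticulum, read 8.17 and 8.43 against 7.26, 6.99, 7.79 and 7.58, a difference of 0.89 (SE 0.11). Psmb8 read 8.57 and 9.02 against 7.75, 7.81, 8.08 and 8.23, a difference of 0.83 (SE 0.09). Psmb8, Psmb9 (0.62, SE 0.09) and Psmb10 (0.61, SE 0.09) encode the catalytic subunits of the immunoproteasome, and all 3 were set apart. H2-T23, a class Ib molecule named after its values were seen, differed by 0.54 (SE 0.10).

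Of 34 NF-κB, cytokine and chemokine genes, 3 were set apart higher, beside 0.921% of all genes, and the median difference was 0.08. All 3 encode chemokines that interferons induce. Cxcl10 read 9.36 and 9.12 against 7.94, 7.57, 8.47 and 8.01, a difference of 1.24 (SE 0.18). Ccl5 differed by 0.74 (SE 0.14). Cxcl11 differed by 0.56 (SE 0.09), but its 7 probe sets disagreed, and with their median in place of their mean the difference was -0.16. Acute phase and innate secretory genes had 0 of 20 members set apart (median 0.01).

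Nos2, the inducible nitric oxide synthase, read 7.67 and 7.99 against 6.35, 6.33, 6.77 and 6.75, a difference of 1.28 (SE 0.08) or 2.43-fold. The 4 other arrays were close together, and 26 of its 31 probe sets were set apart when taken singly. Phf11d, a gene of the interferon-inducible Phf11 cluster, read 8.96 and 9.23 against 7.54, 7.00, 8.32 and 7.77, a difference of 1.44 (SE 0.19).

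Stress and immediate early genes also had members set apart. Of 22 AP-1 and immediate early genes 5 were set apart higher, beside 0.921% of all genes. Their median was 0.28, with 20 above 0, where 50.7% of all genes lay above 0. Atf3, a transcription factor induced by many kinds of stress, read 8.59 and 8.52 against 6.88, 7.19, 7.11 and 7.08, a difference of 1.49 (SE 0.10), or 2.82-fold. Jun, a subunit of AP-1, read 9.41 and 9.37 against 8.59, 8.57, 8.58 and 8.65, a difference of 0.79 (SE 0.08). In both genes the 2 arrays of number 1 were well above the other 4. Dusp1, a phosphatase that ends MAP kinase signals, differed by 0.78 (SE 0.09) and the small Maf protein gene Maff by 0.63 (SE 0.10). Fos, named after its values were seen, read 6.66 and 6.38 against 5.71, 6.03, 5.75 and 6.19, a difference of 0.60 (SE 0.15).

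The integrated stress and unfolded protein response had 2 of 23 members set apart higher (median 0.20), beside 0.921% of all genes. Ddit3, which encodes the stress factor CHOP, read 8.47 and 8.79 against 7.50, 7.35, 7.48 and 7.97, a difference of 1.05 (SE 0.13). Sesn2, a brake on mTORC1 under stress, read 6.19 and 6.34 against 5.63, 5.72, 5.63 and 5.75, a difference of 0.58 (SE 0.09). Both genes had the 2 arrays of number 1 on top. Sesn2 also counts among the 20 CDK inhibitor and p53 target genes, of which 3 were set apart higher (median 0.20), beside the same share. The others were Btg2, an antiproliferative factor (0.73, SE 0.13), and Eda2r, a receptor of the TNF receptor family (0.50, SE 0.08). Of the 2 probe sets of Btg2, 1 was set apart, and with the brightest probe set alone its difference was 0.23. That of Eda2r was 0.48 after median centring, 0.39 with the median probe set and 0.29 with the brightest, all under the limit. Heat shock proteins (0 of 13, median 0.07) and NRF2 targets (1 of 18, median 0.09) had medians near 0. The exception was Cyp1b1, a cytochrome P450 (0.53, SE 0.08).

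Glycolysis and hypoxia genes had 4 of 25 members set apart higher (median 0.14), beside 0.921% of all genes. Adm, the peptide adrenomedullin, read 7.23 and 7.29 against 6.11, 5.91, 6.48 and 6.30, a difference of 1.06 (SE 0.11). Hk2, the inducible hexokinase, read 7.65 and 7.81 against 6.74, 7.04, 7.14 and 7.34, a difference of 0.66 (SE 0.11). Egln3, an oxygen-sensing hydroxylase, differed by 0.65 (SE 0.11) and Pfkfb3, which drives phosphofructokinase, by 0.63 (SE 0.08). Lysosome and autophagy genes had 0 of 21 set apart (median 0.12, with 19 above 0). In 9 of them both arrays of number 1 lay above all others and in 0 below, beside 15.1% and 11.3% of all genes. Number 2 minus number 3 had a median of 0.11 in this list.

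**Figure D3:**
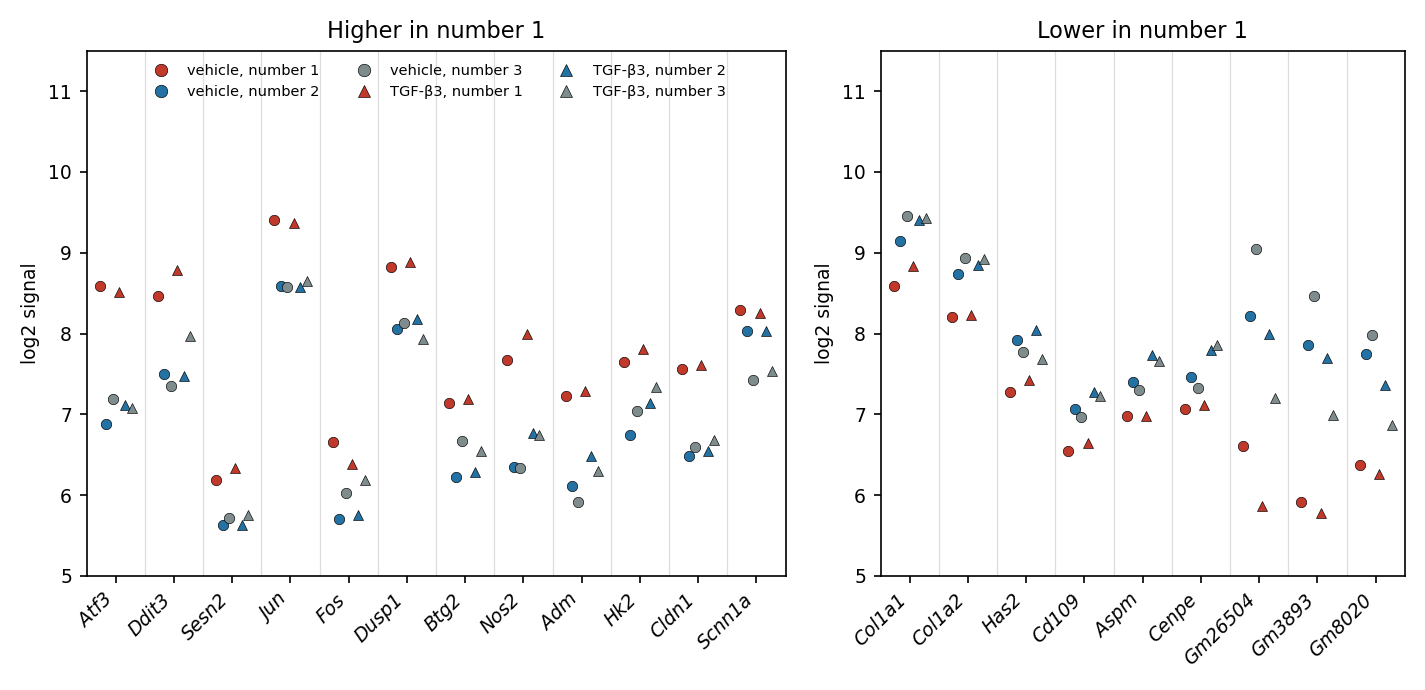
Log2 signal (y axis) on each of the 6 arrays for 12 genes higher in number 1 (left) and 9 genes lower in number 1 (right), with circles for vehicle, triangles for TGF-β3, and red, blue and grey for numbers 1, 2 and 3. Atf3 differed by 1.49 and Col1a1 by -0.64; the 3 genes at the right edge spread widely over numbers 2 and 3.

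Tight junction genes were slightly higher in number 1, and 1 of the 21 measured, Cldn1, reached the limit of 0.5. The median of number 2 minus number 3 was 0.01 in this list. Both arrays of number 1 lay above all others, at any size, in 9 of the 21, beside 15.1% of all genes. Cldn1, a sealing claudin, read 7.56 and 7.61 against 6.48, 6.59, 6.54 and 6.68, a difference of 1.01 (SE 0.08) or 2.02-fold. Its 8 probe sets were all set apart when taken singly. The list median was 0.11, and Ocln, which encodes occludin, read 7.83 and 7.89 against 7.56, 7.45, 7.64 and 7.57, a difference of 0.31 (SE 0.08). Tjp3 (0.38, SE 0.08) and Marveld2 (0.26, SE 0.09) had differences of similar size.

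Adherens junction and polarity genes had 0 of 21 set apart (median 0.10). In 8 of them both arrays of number 1 lay above all others, beside 15.1% of all genes. The largest difference was in Crb3, a polarity protein gene (0.46, SE 0.13). Number 2 minus number 3 had a median of 0.08 in this list, with 15 of 21 genes higher in number 2. Desmosome and hemidesmosome genes had 0 of 18 set apart (median 0.08) and 7 with both arrays above all others, beside the same 15.1%. Their median was -0.03 with the brightest probe set. Number 2 minus number 3 had a larger median of 0.14 there, with 14 of 18 genes higher in number 2. Keratins had 0 of 13 set apart (median 0.06). In 3 both arrays of number 1 lay above all others and in 1 below, beside 15.1% and 11.3% of all genes. Cdh1, which encodes E-cadherin, read 10.25 and 10.23 against 10.27, 10.08, 10.27 and 10.16, a difference of 0.04 (SE 0.09). Krt8 differed by 0.07 (SE 0.08) and Krt18 by 0.08 (SE 0.08), the keratin pair of simple epithelia. For Cdh1 the arrays of number 1 lay within the range of the others. For Krt18 both lay above all others, and for Krt8 vehicle 1 lay below TGF-β3 3. For all 3 genes the rounded differences were no larger than their moderated SE, which does not show that Krt18 was unchanged. Milk protein and milk fat genes had a median of -0.05 and 0 of 16 set apart, with 11 below 0. The largest difference was in Xdh, just under the limit (0.50 when rounded, SE 0.14). It read 9.16 and 9.30 against 8.86, 8.37, 8.98 and 8.72, and 27 of its 38 probe sets were set apart higher when taken singly. Its number 2 minus number 3 was 0.38 (SE 0.10). Scnn1a, a subunit of the epithelial sodium channel, was the member of 18 ion and water transport genes set apart (0.51, SE 0.18, list median 0.05).

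Mitosis genes were lower in number 1 by small amounts. All 22 measured genes were at or below 0, with a median of -0.27, but only Cenpe was set apart. In 13 of the 22 both arrays of number 1 lay below all others and in 0 above, beside 11.3% and 15.1% of all genes. Cenpe, a kinesin of the kinetochore, read 7.07 and 7.12 against 7.46, 7.33, 7.79 and 7.86, a difference of -0.51 (SE 0.10), with -0.32 in vehicle alone. Mki67, the proliferation marker Ki-67, read 9.06 and 8.97 against 9.35, 9.24, 9.54 and 9.42, a difference of -0.37 (SE 0.10). The values of Cenpf (-0.40, SE 0.10) and the kinase Plk1 (-0.36, SE 0.09) were similar. Aspm, a spindle pole protein outside the list and named after its values were seen, read 6.98 and 6.98 against 7.40, 7.30, 7.73 and 7.66, a difference of -0.54 (SE 0.10). For all named genes of the list both arrays of number 1 were the lowest. DNA replication genes had a median of -0.11 with 0 of 22 set apart.

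Cholesterol synthesis genes had a median of -0.14 with 0 of 16 set apart and 13 below 0, the largest being Idi1 (-0.27, SE 0.10). In 6 of the 16 both arrays of number 1 lay below all others and in 0 above, beside 11.3% and 15.1% of all genes. Fatty acid synthesis had a median of -0.06 with 0 of 15 set apart, the largest being Acaca, which encodes acetyl-CoA carboxylase 1 (-0.37, SE 0.09). In 7 of the 15 both arrays of number 1 lay below all others and in 2 above, beside the same shares of all genes.

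Type I collagen genes were lower in number 1. Col1a1, the α1 chain, read 8.59 and 8.84 against 9.14, 9.46, 9.40 and 9.43, a difference of -0.64 (SE 0.10). Col1a2, the α2 chain, read 8.21 and 8.23 against 8.74, 8.93, 8.85 and 8.92, a difference of -0.64 (SE 0.09). Each gene has 52 probe sets, of which 46 for Col1a1 and 38 for Col1a2 were set apart lower when taken singly. The other 16 collagens measured were not set apart, and the list median of -0.03 turned to between 0.02 and 0.04 in 5 of the settings tried, including 0.02 without vehicle 3. Col12a1 (-0.34, SE 0.09) and Col6a1 (-0.29, SE 0.09) came next.

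Other matrix and adhesion lists lay near 0. The medians were -0.05 for fibronectin, laminins and matricellular proteins (0 of 27 set apart), -0.06 for proteases and inhibitors (1 of 27, Mmp15 at 0.69, SE 0.11), -0.03 for integrins and focal adhesions (0 of 20) and 0.03 for contractile and YAP target genes (0 of 23). TGF-β pathway and target genes had a median of 0.08 with 0 of 27 set apart. Among 19 genes of epithelial-mesenchymal transition, Ovol1 (0.55, SE 0.09) and Twist1 (0.53, SE 0.10) were set apart, transcription factors linked to opposite directions of that transition. Among 25 Wnt and Notch genes these were Hey1, a Notch target (0.83, SE 0.11), and Sfrp1, a secreted Wnt antagonist (0.51, SE 0.11). The share of all genes set apart higher was 0.921%. EGF receptor family and ligand genes had 0 of 12 set apart (median 0.12). As control lists, ribosomal proteins had a median of 0.00 and housekeeping genes of -0.01, with 0 set apart in both. In 4 of 9 housekeeping genes both arrays of number 1 lay below all others and in 1 above. Those shares were 11.3% and 15.1% over all genes. The differences of housekeeping genes ran from -0.23 for Gusb (SE 0.08) to 0.21 for Hprt (SE 0.12). Gapdh read 12.04 and 12.03 against 12.04, 12.05, 12.04 and 12.04.

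**Figure D4:**
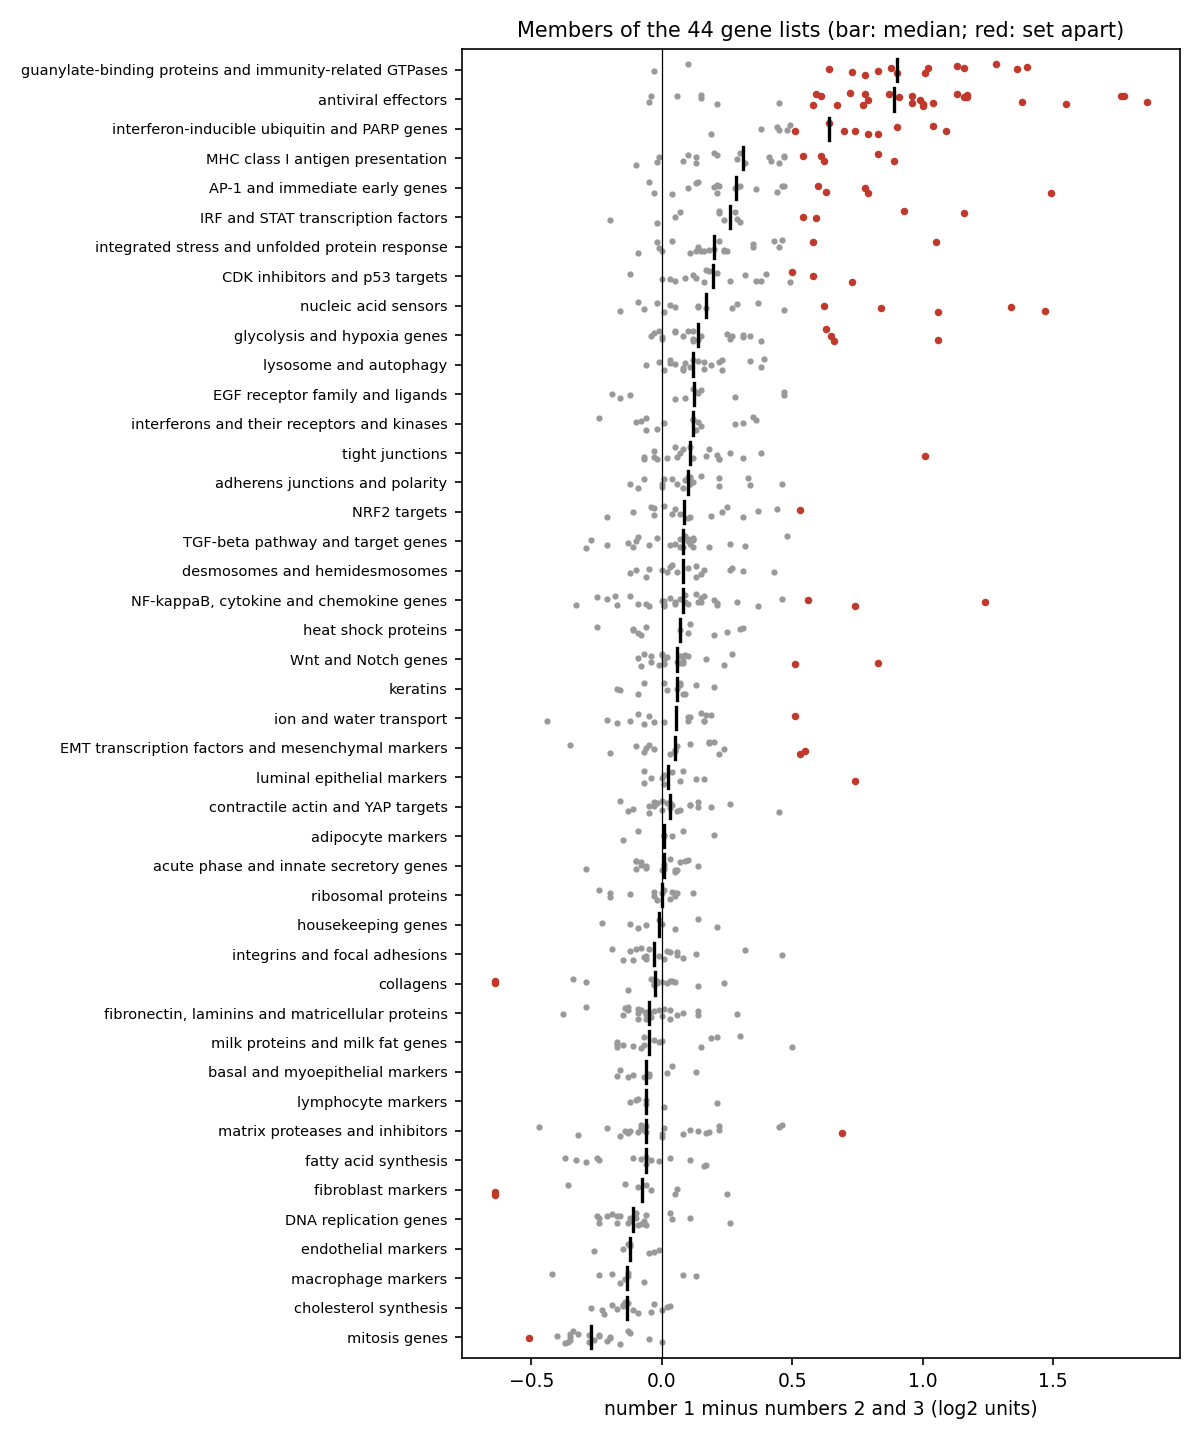
Difference of number 1 from numbers 2 and 3 in log2 units (x axis) for the measured members of the 44 gene lists (rows), with 1 point a gene, red where set apart, and a bar at the median. Guanylate-binding proteins (median 0.90) and antiviral effectors (0.89) lie farthest right and mitosis genes (-0.27) farthest left.

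Markers of leukocytes, which also use interferon genes, were read on the same arrays. Mean signals of the 10 macrophage markers were 5.55 and 5.59 in the arrays of number 1 and 5.65 to 5.79 in the others, and those of the 7 lymphocyte markers were 4.97 to 5.03 and 4.89 to 5.22. Ptprc, the pan-leukocyte marker CD45, read 5.28 and 5.08 against 5.45, 5.63, 5.36 and 5.25. The lymphocyte mean of TGF-β3 1 (4.97) was above those of TGF-β3 2 (4.89) and TGF-β3 3 (4.96), and the differences of single leukocyte markers ran from -0.42 for Csf1r, the macrophage growth factor receptor, to 0.21 for the B cell gene Cd79a. The part of leukocytes in the interferon difference was not tested. Of these marker genes 0 were set apart, and 3 in each list had a mean signal below the lower quartile of all genes (5.06). Endothelial markers read 5.27 to 5.29 and 5.32 to 5.55 (0 of 8 set apart), adipocyte markers 5.15 to 5.25 and 5.10 to 5.26 (0 of 7), and basal and myoepithelial markers 5.91 and 5.91 to 6.01 (0 of 10).

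Fibroblast markers had means of 6.78 and 6.82 in number 1 and 6.89 to 7.01 in the other arrays. The 2 set apart lower of 10 were Col1a1 and Col1a2. Pdgfrb, a receptor of mesenchymal cells, read 8.21 and 8.42 against 8.61, 8.43, 8.92 and 8.74, a difference of -0.36 (SE 0.09), while the difference of Pdgfra was 0.25 (SE 0.10). The part of mesenchymal cells in the collagen difference was not tested. Luminal epithelial markers, checked against the labelled cell type, had means of 8.26 and 8.29 against 8.18 to 8.20. Elf3, an epithelial transcription factor, was the 1 of 12 set apart (0.74, SE 0.08).

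The largest negative differences among the named genes were in repeated families. Gm26504, an unnamed predicted gene with 24 probe sets, read 6.61 and 5.87 against 8.22, 9.04, 7.99 and 7.20, a difference of -1.87 (SE 0.24). Gm3893 read 5.92 and 5.78 against 7.86, 8.46, 7.70 and 6.99, a difference of -1.90 (SE 0.23), and Obox4-ps18, a homeobox pseudogene, differed by -1.88 (SE 0.21). In all 3 genes vehicle 3 was the highest array and TGF-β3 3 the lowest outside number 1. Gm3696 (-1.62, SE 0.19), Gm3002 (-1.22, SE 0.23) and Gm8020 (-1.17, SE 0.17) followed the same order within number 3. Such copies may share probes, so they are not independent genes. Of the 105 genes set apart lower, 53 belonged to 6 families with median signals of 4.15 to 5.37. They were 23 of 911 predicted genes named Gm with a number (2.52%), 14 of 1005 olfactory receptors (1.39%), 6 of 294 microRNA genes (2.04%), 4 of 197 vomeronasal receptors (2.03%), 3 of 7 major urinary proteins and 3 of 6 Obox genes, beside 0.504% of all genes.

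Outside these families, the genes named lower by size were led by Pramel39 (-0.70, SE 0.17), Il18rap, a chain of the interleukin-18 receptor (-0.65, SE 0.11), and the collagens above. Il18rap read 6.96 and 6.86 against 7.45, 7.58, 7.44 and 7.75, and both arrays of number 1 were the lowest. The remaining named genes were Pate14 (-0.61), the histone gene H3c14 (-0.60), the zinc transporter gene Slc39a10 (-0.58), the hair keratin-associated gene Krtap5-4 (-0.57) and Alg3, a mannosyltransferase of N-glycan assembly (-0.56). For 3 of these the value changed by over 1.5 times with either array of number 1 left out. Slc39a10 differed by -0.21 in vehicle and -0.95 in TGF-β3, Krtap5-4 by -0.86 and -0.28, and Pramel39 by -1.17 and -0.23.

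The difference between numbers 2 and 3 was tested with limma over all 20848 genes, with treatment as a covariate and Benjamini-Hochberg adjustment at 0.05. In all, 3 genes passed (0.0144%), and 1911 had an unadjusted p under 0.05, 965 of them higher in number 2. Because number 1 was picked as the culture that stood apart, a low count between the other numbers is in part fixed by that choice and is no support for it. All 3 are small nucleolar RNAs with 1 or 2 probe sets, RNAs that guide the modification of ribosomal RNA, and they are named here after their values were seen. Snora44 read 9.16 and 8.46 in vehicle 2 and TGF-β3 2, 6.54 and 6.53 in vehicle 3 and TGF-β3 3, and 6.64 and 6.59 in vehicle 1 and TGF-β3 1. It was higher in number 2 by 2.27 (SE 0.16, adjusted p = 0.00193). Snora3 was higher by 1.57 (SE 0.11, adjusted p = 0.00193) and Snora70 by 0.90 (SE 0.09, adjusted p = 0.0269), each in 2 of 2 treatments.

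The calls between numbers 2 and 3 depended on single arrays. They numbered 0 without vehicle 3 (lowest adjusted p = 0.0719, 2271 genes at an unadjusted p under 0.05), 26 without vehicle 2, 43 without vehicle 1 or without TGF-β3 1, 140 without TGF-β3 2 and 1433 without TGF-β3 3, when vehicle 3 alone stands for number 3. With a gene taken as its median probe set, or as its brightest, there were 0 (lowest adjusted p = 0.0558 and 0.281, with 1930 and 2467 genes at an unadjusted p under 0.05). Among genes with at least 3 probe sets, the smallest p-values belonged to 10 genes that did not pass (adjusted p = 0.239 to 0.267). They included Egr2, an immediate early transcription factor (-0.59, SE 0.09), and Scnn1a (0.55, SE 0.09, read 8.03 and 8.03 in number 2 and 7.42 and 7.54 in number 3).

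Between numbers 2 and 3, 43 of the 117 interferon genes had an unadjusted p under 0.05 (limma), beside 1911 of all 20848 genes. After adjustment 0 of 117 passed (lowest adjusted p = 0.443, limma). The median of number 2 minus number 3 was 0.18, with 92 of 117 genes higher in number 2, while over all genes it was -0.01 with 48.2% higher. Among the genes named above, the values ran from -0.11 for Psmb8 (SE 0.09) to 0.62 for Ifit1 (SE 0.15). For Atf3 the value was -0.14 (SE 0.11), for Jun -0.02 (SE 0.09), for Cldn1 -0.12 (SE 0.09) and for Col1a1 -0.18 (SE 0.11).

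**Figure D5:**
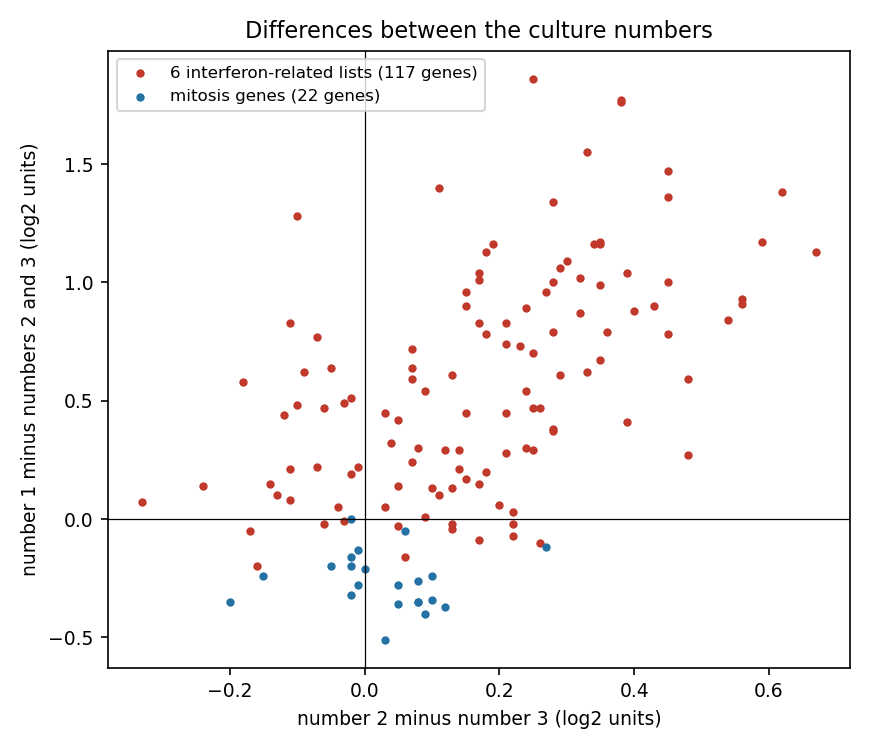
Each point is a gene, placed by number 2 minus number 3 (x axis) and number 1 minus the mean of numbers 2 and 3 (y axis), both in log2 units, for the 117 interferon genes (red) and the 22 mitosis genes (blue). Red points spread upward to 1.86 and mostly to the right of 0, where 92 of 117 lie; blue points lie at or below 0 on the y axis.

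The difference of number 1 was also compared between treatments, as an interaction term in limma. The number of genes that passed was 0 (0.0% of 20848, lowest adjusted p = 0.922), and 206 had an unadjusted p under 0.05. Leaving out TGF-β3 2 gave 5 genes and leaving out TGF-β3 3 gave 6. Among the interferon genes 0 passed and 6 had an unadjusted p under 0.05, with a median of -0.21 and 95 of 117 below 0, while over all genes the median was -0.01 and 52.6% lay below 0. A value below 0 means that number 1 stood less far above the other cultures in TGF-β3 than in vehicle. Vehicle 3 adds to this shift, as the mean signal of the 117 genes was 7.49 there and 7.71 in vehicle 2. Their median interaction without vehicle 3 is not given here. For Ifit3 the interaction was -0.80 (SE 0.29), for Rsad2 -0.50 (SE 0.29) and for Irf7 -0.31 (SE 0.21), none of which passed. For Atf3 it was -0.14 (SE 0.22) and for Nos2 -0.10 (SE 0.18). The 5 genes with the smallest p among those with at least 3 probe sets were Pramel39 (0.93, SE 0.20), 3930402G23Rik (0.76, SE 0.18), Kcnj14, a potassium channel gene (1.07, SE 0.26), Cyp3a57, a cytochrome P450 gene (0.70, SE 0.18), and Krt6b, a keratin gene (0.73, SE 0.20), and they did not pass either.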

How the data were processed

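RNA of 6 EpH4 samples was hybridised to whole-transcript Affymetrix mouse arrays. The log2 signals of 241576 probe sets, as deposited, were made with RMA in Affymetrix Power Tools, per the submitters' processing notes. Versions and a genome build are not given in the sources used here. Values from 2.96 to 13.07 set the scale as log2. Groups and numbers were taken from the sample titles, and 0 value columns were unmapped.

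By the platform's probe table, 1 symbol was listed for 213361 probe sets (88.3%), which entered; 5107 with several symbols and 23108 with none were left out. Of 20893 symbols, 18496 were current in RefSeq (GRCm38.p6, used for names), 2354 were replaced by way of a synonym, and 43 stayed as listed. Probe sets were averaged per gene and array (20848 genes, median of 8 probe sets, 2636 genes with 1), with no filter on low signal. Detection calls were not used, so the background level is unknown, and 6 arrays limit the precision.

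Differences came from lmFit and eBayes of limma 3.58.1, run under R 4.3.3, with treatment and number 1 as terms. For number 2 minus number 3, the number had 3 levels. That fit and the interaction fit each had 2 residual degrees of freedom. The code was checked on simulated data. The p-values measure only the spread among these samples. Tables, motif search and figures were made with pandas 2.3.3 and matplotlib 3.10.9 under Python 3.11.15.

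The split, the 44 gene lists (838 memberships, 797 measured, the rest not analysed here) and the tests were chosen with earlier results of these data known. Genes were named by rule: the 15 largest differences in each direction among genes set apart with a mean signal of at least 6 and at least 3 probe sets, up to 4 members of largest absolute difference per list, the 10 and 5 smallest p-values of the 2 tests among genes with at least 3 probe sets, and a short set. Others are marked.

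The alternatives were quantile normalization, median centring, the median or brightest probe set, leaving out each array, either other number or either treatment alone, a filter on low signal, other minimum differences and, for the tests, trend and robust options. Limits of 3 probe sets, and of 3 probe sets with a signal of 6, were added after seeing the data.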

Additional observations from a re-analysis of the deposited data

How the results depend on the processing

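No paired analysis was possible because the sample number is itself what was compared. The counts set apart, higher and lower (192 and 105), were 310 and 190 with the median over the probe sets, 398 and 577 with the brightest probe set, 352 and 284 in vehicle arrays alone, 33 and 21 at a difference of at least 1, and 3146 and 2359 with no minimum. Leaving out each array in turn gave 168 to 335 higher and 100 to 240 lower. With at least 3 probe sets the lower count was 37, and with a mean signal of at least 6 as well it was 19, both chosen after seeing the data. After quantile normalization (180 and 108), median centring (177 and 122), the low signal filter (191 and 86), against number 2 alone (213 and 150), number 3 alone (267 and 144) and in TGF-β3 arrays alone (174 and 108) the counts stayed within 1.5 times. The brightest probe set shared 143 of the 192 higher and 87 of the 105 lower genes, quantile normalization 180 and 102, and TGF-β3 arrays alone, like leaving out vehicle 1, 139 and 62, the lowest overlap of the lower genes. Between 51 and 71 interferon genes were set apart higher, and 0 lower, in each setting except a difference of at least 1 (23) and no minimum (87 higher and 2 lower).

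Number 2 minus number 3 (3 genes) gave 0 with the median or the brightest probe set and 0 to 1433 when each array was left out, 4 with trend and robust options and 3 in the other settings. The interaction (0 genes) gave 0 to 6 with an array left out, and could not be estimated without vehicle 1 or TGF-β3 1. Of the values of 208 named genes under 14 settings, 2693 moved by less than the spread and 218 by more. For example, with the brightest probe set Sfrp1 was at 0.03, Hk2 at 0.17 and H3c14 at -0.20, and with the median probe set Twist1 was at 0.29, all below the limit of 0.5 in size. In 1, Cxcl11 with the median over the probe sets, 0.56 turned to -0.16. The sign of a list's median turned in 52 cases, for medians of at most 0.12 in size. The causes were not tested. Without detection calls, differences of genes with a low signal are the least certain, and the 2 arrays of number 1 limit every value given.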

Other observations

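Of the 192 genes set apart higher in number 1, 106 were in none of the lists, and of the 105 lower, 102. The genes in this paragraph were chosen after their values were seen. Several of the higher ones have known roles in immune signalling. Cd274, which encodes the checkpoint ligand PD-L1, read 7.62 and 7.54 in vehicle 1 and TGF-β3 1 against 6.53, 6.51, 6.83 and 6.58 in vehicle 2, vehicle 3, TGF-β3 2 and TGF-β3 3, a difference of 0.97 (SE 0.10). Il15, a cytokine for natural killer cells, differed by 0.72 (SE 0.11), Tnfsf10, the death ligand TRAIL, by 0.64 (SE 0.08) and Casp4, the sensor caspase for cytosolic lipopolysaccharide, by 0.54 (SE 0.10). The helicase gene Ddx60 differed by 1.07 (SE 0.13), and the nuclear body genes Sp100 by 0.94 (SE 0.17) and Pml by 0.58 (SE 0.13). Of 10 measured Slfn genes, 5 were set apart higher, beside 0.921% of all genes.

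A further few concern stress, signalling and lipids, also chosen after their values were seen. Ppp1r15a, which encodes the phosphatase subunit GADD34 of the integrated stress response, read 7.22 and 7.38 against 6.48, 6.81, 6.36 and 6.73, a difference of 0.70 (SE 0.13). Txnip, the thioredoxin-interacting protein, differed by 0.71 (SE 0.12), Abca1, a cholesterol exporter, by 0.74 (SE 0.10) and Map3k1, a kinase upstream of JNK, by 0.72 (SE 0.10). The MAP kinase phosphatases Dusp8 (0.57, SE 0.10) and Dusp10 (0.55, SE 0.09) were set apart beside Dusp1. In each of these genes both arrays of number 1 were above all 4 others.

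The small nucleolar RNAs Snora73a (0.60, SE 0.09), Snora73b (0.55, SE 0.09) and Snord104 (0.56, SE 0.16) were set apart higher in number 1, each on 1 probe set. They were 3 of 53 measured genes named Snora or Snord, beside 0.921% of all genes.

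Over the 192 genes set apart higher, the median of TGF-β3 minus vehicle was 0.15 in number 1, 0.25 in number 2 and 0.34 in number 3. Each is a median over genes within 1 pair of arrays. The 192 genes were picked on these same arrays, so the rule shapes these medians in part. The value of number 3 also rests on vehicle 3, the array with the lowest SD over genes (1.58). How the medians differ between numbers was not tested.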
